A study of Mus musculus with 30 samples.

Results

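The guanylate-binding proteins (GBPs) are large GTPases that interferons induce in immune and non-immune cells. They assemble as coats on pathogen-containing vacuoles and on bacteria in the cytosol, where they help to break membranes, recruit ubiquitin ligases and open the way to inflammasome signalling. IFNγ acts on promoters through gamma-activated sites (GAS), and type I interferons such as IFNβ through interferon-stimulated response elements (ISRE), which a complex with STAT2 and IRF9 binds. In mice the family is encoded in a pair of gene clusters, and some members (Gbp2, Gbp2b and Gbp5) end in a CaaX motif to which a prenyl lipid is attached, an anchor for membranes.

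The 10 Gbp genes described here (Gbp2, Gbp2b, Gbp3, Gbp4, Gbp5, Gbp6, Gbp7, Gbp8, Gbp9 and Gbp10) were chosen by name, not by a measured value, from 49315 genes counted. They were followed through 24 bulk RNA-seq libraries of 2 mouse tumor cell lines, with 8 groups of 3. B16F10 is a melanoma line. 6694c2 is a pancreatic ductal adenocarcinoma (PDAC) line derived, per the study's methods, from female mice in which Pdx-cre acted on engineered alleles, among them a floxed p53 allele and a YFP reporter, and C57BL/6 is the genotype the labels give for both lines. In each line the groups were vehicle, 100 ng/mL of IFNγ, 1000 U/mL of IFNβ and 225 μg/mL of STING agonist, and cells were cultured with them for 24 h. The labels call the material tumor, whereas the methods describe these libraries as cells treated in culture. Each cancer type is here a single line, so line and cancer type cannot be told apart.

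Each library had between 15543131 and 32266795 reads assigned to genes. Expression is given as CPM, reads scaled to a common library size after TMM normalization, and as RPKM, CPM per kilobase of exon, wherever genes are compared with each other. A gene was called where its adjusted p was under 0.05 in edgeR's quasi-likelihood test, over the 21138 genes with at least 10 reads combined, and all 10 members passed that minimum. Nothing says that replicates came from separate cultures, so p-values speak of these libraries only. The test pools its estimate of spread over groups and genes, so a standard error can be small where a gene's own libraries differ widely. Gbp2 ranged from 9.23 to 27.4 CPM with vehicle in B16F10 cells, while its log2 IFNγ change there had a standard error of 0.08. Each line carried most of its own markers. Melanocyte genes (11, such as Tyr and Pmel) summed to between 16860 and 21430 CPM in B16F10 libraries. Ductal epithelial genes (12, such as Krt8 and Krt19) summed to between 12620 and 14630 CPM in 6694c2 libraries. Between vehicle groups 9 of those 12 were higher in 6694c2 cells, against 28.7% of all genes tested. Of the others, 1 was lower, against 29.3%, and 2 were not called. Leukocyte genes (8) summed to between 2.03 and 9.69 CPM, with Cd3e, Itgam or Itgax at 0 in each group. In bulk libraries, fewer cells that express a gene and less RNA per cell cannot be told apart.

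One B16F10 vehicle library stood apart for some members. It enters every B16F10 comparison with vehicle and is named at some of the results that lean on it. Replicate 1 held 5 reads of Gbp6 against 53 and 34 in the other vehicle libraries, 1 read of Gbp10 against 33 and 20, and 14 reads of Gbp4 against 64 and 56. Gbp2 (193 reads against 684 and 438) and Gbp9 (3 against 11 and 23) were lowest there too. Expressed against the B16F10 IFNγ mean, its levels of Gbp2, Gbp4, Gbp6 and Gbp10 lay between 0.0195% and 0.225%, below the ranges of replicate 2 (0.425% to 0.669%) and replicate 3 (0.320% to 0.418%). It was also low for other genes with a strong response to IFNγ. Over 11 such genes (at least 50 CPM with IFNγ, over 32-fold above vehicle and over 8-fold above IFNβ, a rule set after the values were seen) the median was 0.0531% in replicate 1, 0.457% in replicate 2 and 0.386% in replicate 3.

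Of the 10 members, 5 lie within 144 kb on the plus strand of chromosome 3, between 142493978 and 142638008, in the order Gbp5, Gbp7, Gbp3, Gbp2b and Gbp2 (GRCm38). The other 5 lie within 279.5 kb on the minus strand of chromosome 5, between 105014150 and 105293698, in the order Gbp8, Gbp9, Gbp4, Gbp10 and Gbp6. RefSeq promoter windows of GRCm38.p6 were matched for the 5 members on chromosome 3 (6 windows, since Gbp3 has 2). No window was matched for the members on chromosome 5, which include those with the largest differences between the interferons described below. The 250 bases before the start are printed for 4 chromosome 3 members. They are Gbp2, the most abundant, Gbp3 and Gbp7, which like it responded to both interferons, and Gbp2b, which stayed near 0. All are written 5′ to 3′ on the plus strand, and capitals mark matches to a GAS (TTCNNNGAA) or an ISRE (GAAA, any 2 bases and GAAA again, sought on both strands).
Gbp2, chr3:142620413-142620662: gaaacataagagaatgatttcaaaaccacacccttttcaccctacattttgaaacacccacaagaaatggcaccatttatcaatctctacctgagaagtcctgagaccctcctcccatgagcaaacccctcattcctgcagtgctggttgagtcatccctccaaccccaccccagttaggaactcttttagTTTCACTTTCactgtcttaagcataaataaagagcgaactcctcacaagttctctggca
Gbp3, chr3:142559794-142560043: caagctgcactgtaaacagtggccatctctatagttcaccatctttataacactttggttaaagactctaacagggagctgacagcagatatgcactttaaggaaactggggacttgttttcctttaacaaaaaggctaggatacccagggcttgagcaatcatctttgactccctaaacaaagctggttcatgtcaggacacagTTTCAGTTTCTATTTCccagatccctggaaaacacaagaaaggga
Gbp7, chr3:142530086-142530335: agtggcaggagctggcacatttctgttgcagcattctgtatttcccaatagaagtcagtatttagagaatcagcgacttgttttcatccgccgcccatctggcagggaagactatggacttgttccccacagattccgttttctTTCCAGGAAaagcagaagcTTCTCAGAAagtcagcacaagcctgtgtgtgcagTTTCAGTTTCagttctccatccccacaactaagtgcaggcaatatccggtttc
Gbp2b, chr3:142594597-142594846: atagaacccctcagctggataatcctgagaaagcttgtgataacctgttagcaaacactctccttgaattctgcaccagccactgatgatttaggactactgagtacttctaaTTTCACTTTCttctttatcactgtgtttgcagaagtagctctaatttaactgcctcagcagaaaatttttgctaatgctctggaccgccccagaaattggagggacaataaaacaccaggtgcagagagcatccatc

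The Gbp2 window held 1 ISRE match, beginning 59 bases before the RefSeq start. GENCODE M21 begins Gbp2 further upstream, at 142620602, so that match lies inside its gene model. In the Gbp3 window a pair of overlapping ISRE matches began 45 and 39 bases before the start, and the window of its other start held none. The Gbp7 window held GAS matches at 106 and 87 bases and an ISRE match at 53 bases. Gbp2b had the same ISRE letters as Gbp2, at 137 bases. Gbp5 (chr3:142496684-142496933, not printed) held GAS matches at 245 and 52 bases and an ISRE match at 165 bases, all inside its GENCODE M21 gene model, which begins at 142493978. Of 32851 RefSeq promoters of the same length, 7.02% held a GAS match, 2.98% an ISRE match and 0.332% both. These are letter matches in a short window, with no measurement of binding behind them.

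Without treatment, the family was at low levels in both lines, and most of it was Gbp2 and Gbp3. Summed over the 10 members, it came to 14.1 ± 4.87 RPKM in B16F10 and 15.6 ± 3.34 in 6694c2 cells (SD, n = 3 each). In B16F10 cells Gbp2 made up 48.4% ± 8.86 of that sum and Gbp3 38.3% ± 8.75 (SD, n = 3), and their RPKM ranges overlapped. In 6694c2 cells Gbp2 made up 79.8% ± 0.253 and Gbp3 10.6% ± 0.49. With IFNγ the sum stood at 2098 ± 54.8 RPKM in B16F10 and 2897 ± 65.9 in 6694c2 cells, and Gbp2 alone held 77.7% ± 1.24 and 84.9% ± 0.336 of it. With IFNβ the sums were 227 ± 5.56 and 259 ± 3.98 RPKM, and the makeup was more even: Gbp2 held 52.7% ± 1.14 and 46.1% ± 0.475, and Gbp3 39.5% ± 1.40 and 40.6% ± 0.687. Below Gbp2 and Gbp3, the order of RPKM levels with IFNγ was Gbp4, Gbp10, Gbp6, Gbp7, Gbp9, Gbp5, Gbp8 and Gbp2b in B16F10 cells, where Gbp10 and Gbp6 alone overlapped, and Gbp7, Gbp4, Gbp6, Gbp10, Gbp9, Gbp8, Gbp5 and Gbp2b in 6694c2 cells, with no overlap between neighbors. With STING agonist the sum was 31.4 ± 3.86 RPKM in B16F10 and 6.25 ± 1.30 in 6694c2 cells (SD, n = 3 for each value).

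**Figure D1:**
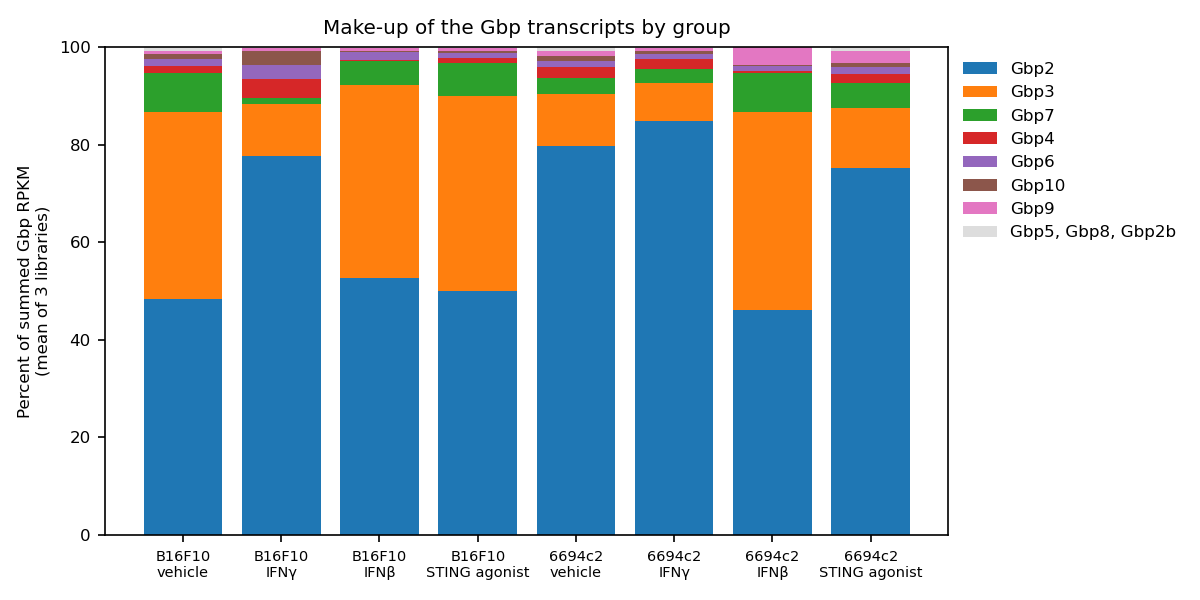
Share of each member in the summed RPKM of the 10 Gbp genes, as stacked percentages of group means (n = 3 libraries per bar), for vehicle, IFNγ, IFNβ and STING agonist in each line. Gbp2 takes 77.7% of the B16F10 and 84.9% of the 6694c2 sum with IFNγ, and with IFNβ Gbp3 takes 39.5% and 40.6%.

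IFNγ raised the family in both lines. In B16F10 cells 9 of 10 members were higher than with vehicle, against 12% of all genes tested, and 0 of 10 were lower, against 10.8%. In 6694c2 cells all 10 were higher, against 7.89%, and 0 of 10 were lower, against 5.66%. The median log2 fold change, over the 8 members other than Gbp2b and Gbp8, was 7.19 in B16F10 and 7.14 in 6694c2 cells, and over all 10, with a member that was at 0 with vehicle set to its lower bound, 6.53 and 7.06. The median over all genes tested was 0 in both. The vehicle and IFNγ libraries did not overlap for any member but Gbp2b in B16F10 cells. The share of all genes tested that separate in this way was not computed. Every one of the calls for members other than Gbp2b held in all 16 alternatives.

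Gbp2, the prenylated member that in mouse cells coats Toxoplasma vacuoles and released bacteria, was the most abundant. In B16F10 cells it stood at 9.23, 27.4 and 17.1 CPM in the 3 vehicle libraries and at 4261, 3965 and 4082 CPM with IFNγ, a log2 fold change of 7.81 ± 0.08 (SE, adjusted p = 1.07e-272). In 6694c2 cells the vehicle libraries held 36.2, 34.2 and 23.8 CPM and the IFNγ libraries 6356, 6102 and 6109 CPM (log2 fold change 7.64 ± 0.12, adjusted p = 2e-38). In both lines every IFNγ library lay far above the highest vehicle library. Gbp5, a prenylated member known for promoting inflammasome assembly, was scarce by comparison. It rose from 0.335, 0.481 and 0.313 CPM to 34.4, 38.1 and 31.3 CPM in B16F10 cells (log2 fold change 6.49 ± 0.18) and from 0.292, 0.0558 and 0.366 CPM to 12.1, 11.7 and 12.9 CPM in 6694c2 cells (5.70 ± 0.29). Per length, the IFNγ level of Gbp5 was 5.22 ± 0.513 RPKM in B16F10 cells against 1631 ± 59.5 for Gbp2 (SD, n = 3 each).

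The third prenylated member, Gbp2b, called Gbp1 in much of the literature, was barely detected: 46 reads fell on it in all 24 libraries. In 6694c2 cells it had 0 reads in each vehicle library and 7, 2 and 7 reads with IFNγ. Their level was 4.25-fold above a floor of 3 counts over the vehicle group (adjusted p = 0.0204). Counting error in those few IFNγ reads is not covered. In B16F10 cells it had 3, 0 and 4 reads with vehicle and 3, 1 and 3 with IFNγ, too few to detect a difference. The call in 6694c2 cells was lost in 6 of 14 alternatives, among them leaving out any 1 vehicle library (adjusted p from 0.0584 to 0.0775), IFNγ replicate 1 (adjusted p = 0.0812) or IFNγ replicate 3 (adjusted p = 0.0545). Gbp2b lies between Gbp3 and Gbp2, both of which rose in the same libraries.

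Among members without a prenyl anchor on chromosome 3, Gbp3 rose in B16F10 cells from 14.02, 18.2 and 18.03 CPM to 741, 725 and 705 CPM with IFNγ (log2 fold change 5.42 ± 0.07). In 6694c2 cells it rose from 5.95, 5.97 and 4.27 CPM to 744, 732 and 707 CPM (7.08 ± 0.10). The levels with IFNγ thus overlapped between the lines, while the vehicle levels did not. Gbp7, which takes part in autophagic and oxidative defence, rose from 5.07, 6.74 and 5.95 CPM to 144, 154 and 139 CPM in B16F10 cells (4.61 ± 0.09, the smallest change of a called member there). In 6694c2 cells it rose from 3.62, 3.01 and 1.89 CPM to 477, 472 and 426 CPM (7.34 ± 0.12).

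On chromosome 5, Gbp4 stood at 0.670, 2.57 and 2.19 CPM with vehicle and at 587, 665 and 560.2 CPM with IFNγ in B16F10 cells (log2 fold change 8.33 ± 0.10). In 6694c2 cells it rose from 3.56, 2.79 and 1.65 CPM to 449, 479 and 459 CPM (7.44 ± 0.13). Gbp6, which is recruited to Toxoplasma vacuoles, rose in B16F10 cells from 0.239, 2.13 and 1.33 CPM to 355, 361 and 349.6 CPM (8.10 ± 0.10) and in 6694c2 cells from 0.992, 1.73 and 1.10 CPM to 173, 168 and 159 CPM (7.03 ± 0.14). Each of these vehicle values in B16F10 cells is lowest in replicate 1, and without that library the log2 fold changes were 7.98 for Gbp4 and 7.67 for Gbp6.

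Gbp10 rose from 0.0478, 1.32 and 0.782 CPM to 235, 283 and 217 CPM in B16F10 cells (8.33 ± 0.12) and from 0.817, 0.558 and 0.305 CPM to 86.0, 79.0 and 83.0 CPM in 6694c2 cells (7.20 ± 0.16). Its B16F10 vehicle value is lowest in replicate 1 as well, with 1 read, which raises the fold change there. Its counts and those of Gbp6 are uncertain, since the pair share sequence: 73.3% of the 50-base words in Gbp10 transcripts occur in Gbp6, and 46.0% of those in Gbp6 occur in Gbp10. In addition 46.3% of the exon bases of Gbp10 and 29.0% of those of Gbp6 are annotated to the overlapping gene Gm43302, and how such reads were assigned is not given in the sources used here. Gbp9, another member seen on Toxoplasma vacuoles, rose from 0.144, 0.441 and 0.900 CPM to 51.1, 55.2 and 42.6 CPM in B16F10 cells (6.57 ± 0.16) and from 1.34, 0.725 and 0.732 CPM to 89.3, 94.7 and 83.0 CPM in 6694c2 cells (6.58 ± 0.14). The changes of Gbp9 in the lines differed by less than their standard errors.

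Gbp8 was at 0 reads in all 3 B16F10 vehicle libraries and at 97, 97 and 71 reads with IFNγ. Its IFNγ level was 86.4-fold above a floor of 3 counts over the vehicle group. In 6694c2 cells it had 4, 8 and 2 reads with vehicle and 192, 146 and 246 reads with IFNγ (log2 fold change 5.09 ± 0.30). With IFNγ it was at 1.09 ± 0.213 RPKM in B16F10 and 2.71 ± 0.348 RPKM in 6694c2 cells (SD, n = 3 each), the lowest of the members other than Gbp2b in B16F10 cells. Gbp4, Gbp8 and Gbp9 share an exon stretch of 60 or 61 bases. Of the 50-base words in Gbp8 transcripts, 18.1% occur in other Gbp genes, against 8.05% for Gbp9 and 7.53% for Gbp4. Whether some of the few Gbp8 reads came from more abundant members was not tested.

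**Figure D2:**
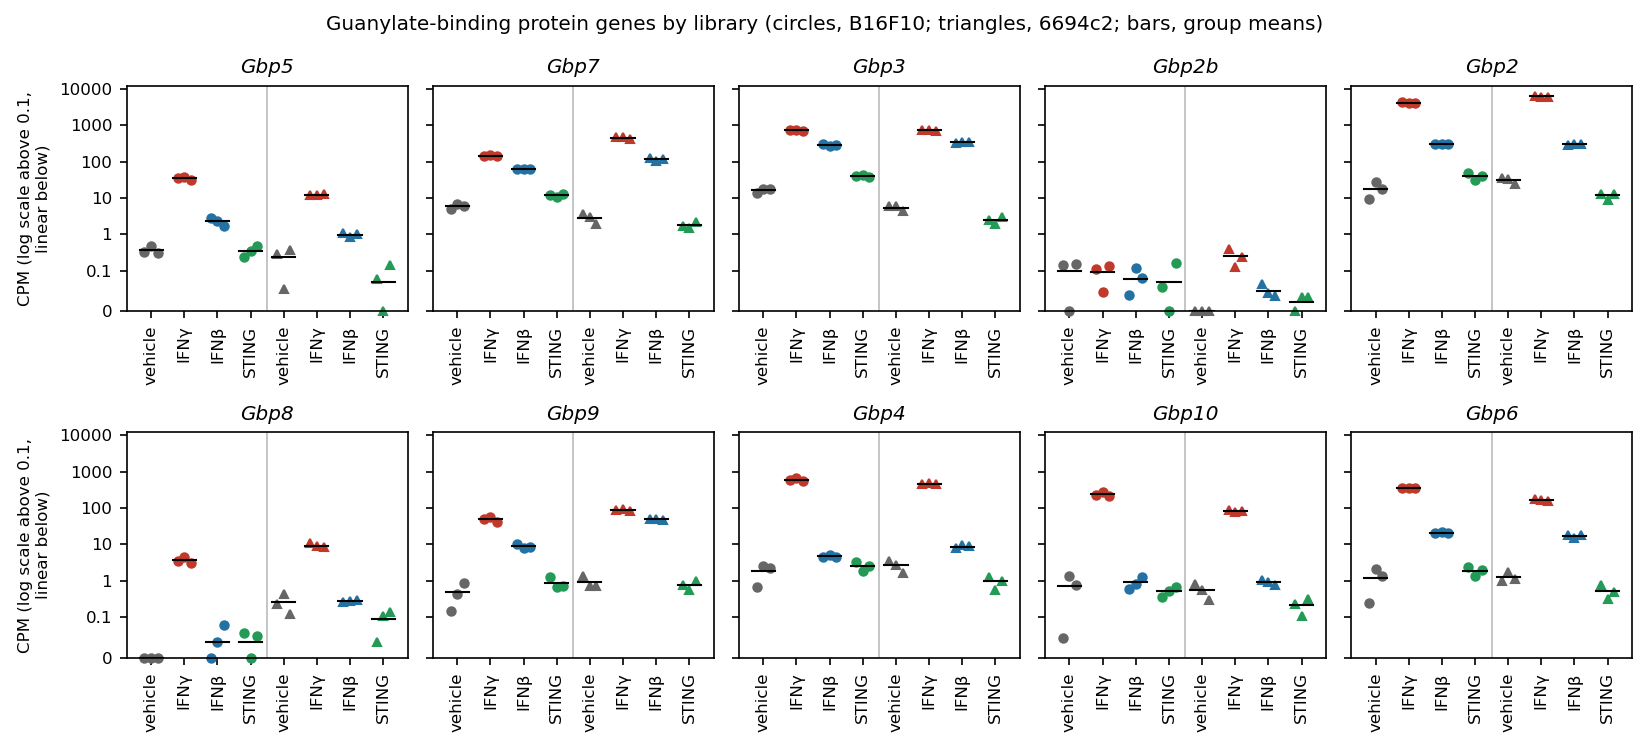
Expression of each member (CPM, log scale above 0.1 and linear below) in each of the 24 libraries, 1 panel per member, with 3 points per group for vehicle, IFNγ, IFNβ and STING agonist in B16F10 (circles) and 6694c2 cells (triangles) and bars at the group means. Within each line the IFNγ libraries are the highest for each member but Gbp2b, and for Gbp4 and Gbp10 the IFNβ libraries sit near vehicle.

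IFNβ raised the family as well, to lower levels than IFNγ. The same vehicle libraries serve as the control for all 3 treatments of a line, so their deviations enter each of these comparisons. In B16F10 cells 7 of 10 members were higher than with vehicle, against 12.7% of all genes tested, and 0 of 10 lower, against 11.2%. In 6694c2 cells 7 of 10 were higher, against 10.4%, and 0 of 10 lower, against 7.86%. The called members were Gbp2, Gbp3, Gbp4, Gbp5, Gbp6, Gbp7 and Gbp9 in each line, and each of these calls held in all 16 alternatives. Over the 8 members other than Gbp2b and Gbp8, the median log2 fold change was 3.72 in B16F10 and 3.53 in 6694c2 cells, while that of all genes tested was 0.0194 and 0.

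Gbp3, Gbp7 and Gbp9 came closest to their IFNγ levels. Gbp3 stood at 311, 276 and 292 CPM with IFNβ in B16F10 cells (log2 fold change against vehicle 4.13 ± 0.07) and at 333, 355 and 344 CPM in 6694c2 cells (6.02 ± 0.10). Gbp7 stood at 61.3, 63.8 and 61.5 CPM in B16F10 cells (3.39 ± 0.09) and at 128, 103 and 115 CPM in 6694c2 cells (5.37 ± 0.12). For both genes every IFNβ library lay between the vehicle and the IFNγ libraries of its line. Gbp9 stood at 10.0, 8.13 and 8.49 CPM in B16F10 cells (4.09 ± 0.19) and at 49.4, 49.8 and 47.4 CPM in 6694c2 cells (5.74 ± 0.15).

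Gbp2 reached nearly the same level in both lines with IFNβ, at 302, 300.1 and 301 CPM in B16F10 cells (log2 fold change 4.06 ± 0.07) and 292, 307 and 304 CPM in 6694c2 cells (3.29 ± 0.10). Gbp6 stood at 20.9, 21.8 and 21.2 CPM in B16F10 (4.05 ± 0.13) and 17.7, 15.0 and 18.5 CPM in 6694c2 cells (3.77 ± 0.16). Smaller changes were called for the remaining 2. Gbp5 stood at 2.83, 2.26 and 1.70 CPM (2.57 ± 0.27) and 1.10, 0.859 and 0.995 CPM (2.10 ± 0.42), and Gbp4 at 4.52, 5.21 and 4.61 CPM (1.36 ± 0.15) and 7.82, 9.68 and 8.88 CPM (1.74 ± 0.15).

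Gbp10, Gbp8 and Gbp2b were not called with IFNβ. Gbp10 stood at 0.606, 0.843 and 1.29 CPM in B16F10 cells (log2 fold change 0.28 ± 0.27, adjusted p = 0.554) and at 1.07, 0.950 and 0.774 CPM in 6694c2 cells (0.76 ± 0.30, adjusted p = 0.0823), within or close to the spread of the vehicle libraries. The call hung on single vehicle libraries: Gbp10 was called in B16F10 cells without vehicle replicate 2 (1.02, adjusted p = 0.0152) and in 6694c2 cells without vehicle replicate 1 (1.12, adjusted p = 0.0218), and in B16F10 cells its sign turned without vehicle replicate 1 (-0.20) or IFNβ replicate 3 (-0.04). With its reads and those of Gbp6 summed into 1 feature, the pair was called in both lines (3.45 in B16F10 and 3.32 in 6694c2 cells). Most of the pair's reads with IFNβ were those of Gbp6, so that call follows Gbp6 and does not speak to Gbp10. Gbp8 had 0, 1 and 2 reads with IFNβ in B16F10 cells and 8, 6 and 8 reads in 6694c2 cells, against 4, 8 and 2 with vehicle.

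**Figure D3:**
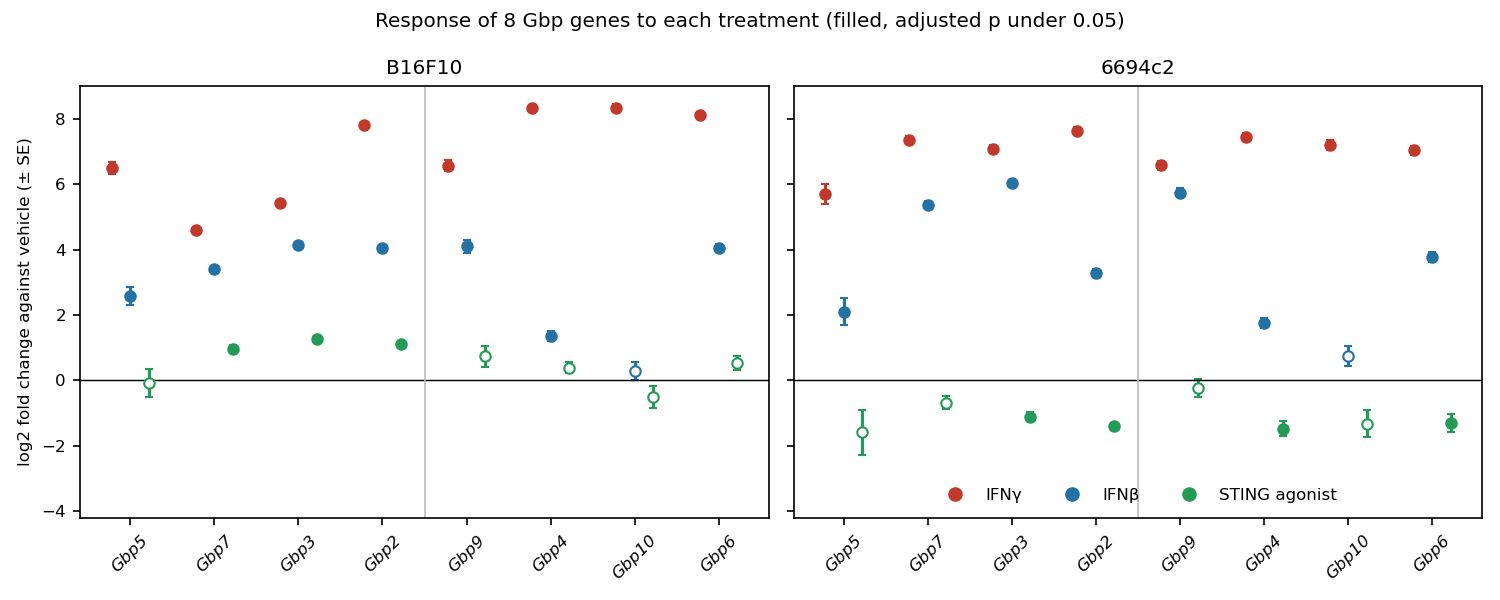
Log2 fold change against vehicle (points) with its standard error (bars) for IFNγ, IFNβ and STING agonist, for the 8 members other than Gbp2b and Gbp8, in B16F10 (left) and 6694c2 cells (right), from edgeR with n = 3 libraries per group. Filled points are called, open points are not, and the grey line divides the clusters of chromosome 3 and chromosome 5. IFNγ values lie between 4.61 and 8.33 in B16F10 and between 5.70 and 7.64 in 6694c2 cells, and STING agonist values between -1.59 and 1.26 over both lines.

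Compared directly, IFNγ gave higher levels than IFNβ for 9 of 10 members in B16F10 cells, against 7.85% of all genes tested, and for 9 of 10 in 6694c2 cells, against 6.57%. In each line 0 of 10 were lower, against 6.65% and 7.3%, and Gbp2b was the member not called in either. The size of the difference split the family. Gbp10 was at the top, with a log2 difference of 8.05 ± 0.12 in B16F10 and 6.44 ± 0.14 in 6694c2 cells, followed by Gbp4 with 6.97 ± 0.08 and 5.70 ± 0.11. Gbp8 came next with 6.36 ± 0.52 and 5.02 ± 0.27.

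A middle group held Gbp6 (4.05 ± 0.07 in B16F10 and 3.26 ± 0.09 in 6694c2 cells), Gbp5 (3.92 ± 0.13 and 3.60 ± 0.21) and Gbp2 (3.76 ± 0.07 and 4.34 ± 0.10). Lowest were Gbp9 (2.47 ± 0.10 and 0.84 ± 0.08), Gbp3 (1.29 ± 0.05 and 1.06 ± 0.07) and Gbp7 (1.21 ± 0.07 and 1.97 ± 0.08). The 3 members with the largest differences all lie on chromosome 5, as do Gbp6 and Gbp9, and Gbp3 and Gbp7 lie on chromosome 3. Across the 9 members other than Gbp2b, the differences of the lines had a Pearson's r of 0.937 and a Spearman's rho of 0.867. These values describe genes that share libraries and, above all Gbp6 and Gbp10 but also Gbp8, sequence. With Gbp6 and Gbp10 summed, the pair's difference was 4.74 in B16F10 and 3.77 in 6694c2 cells. With IFNβ that sum was mostly Gbp6, with 1611 reads against 69 of Gbp10 in B16F10 and 1366 against 74 in 6694c2 cells. It therefore follows Gbp6 and cannot show whether the place of Gbp10 at the top depends on how shared reads were divided. That division is not known.

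**Figure D4:**
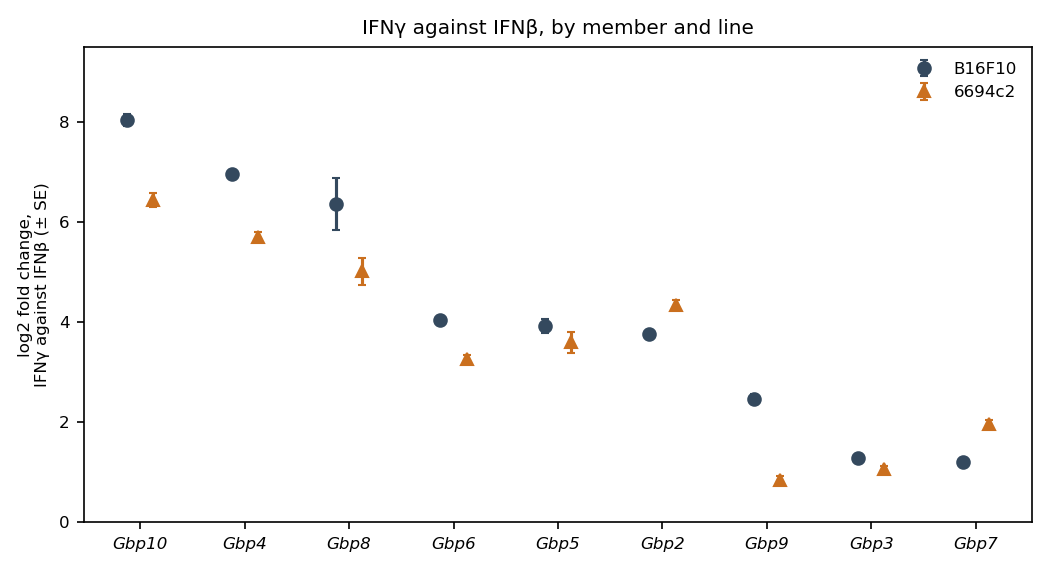
Log2 fold change of IFNγ against IFNβ for 9 members, in the order of their B16F10 values, in B16F10 (circles) and 6694c2 cells (triangles), with standard errors as bars (edgeR, n = 3 libraries per group). Gbp10 (8.05 and 6.44) and Gbp4 (6.97 and 5.70) lie at the top in both lines, and Gbp3 (1.29 and 1.06) and Gbp7 (1.21 and 1.97) near the bottom.

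With STING agonist the called members moved up in B16F10 and down in 6694c2 cells. In B16F10 cells 3 of 10 members were higher than with vehicle, against 1.93% of all genes tested, and 0 of 10 lower, against 1.53%. In 6694c2 cells 0 of 10 were higher, against 0.203%, and 4 of 10 lower, against 0.156%. Over the 8 members other than Gbp2b and Gbp8, the median log2 fold change was 0.63 in B16F10 and -1.31 in 6694c2 cells, and that of all genes tested was 0 in each line.

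In B16F10 cells Gbp3 rose from 14.02, 18.2 and 18.03 CPM with vehicle to 40.7, 42.9 and 37.9 CPM with STING agonist (log2 fold change 1.26 ± 0.07, adjusted p = 3.08e-51), and Gbp7 from 5.07, 6.74 and 5.95 CPM to 11.9, 10.6 and 12.7 CPM (0.97 ± 0.10, adjusted p = 5.06e-16). Neither pair of groups overlapped, and both calls held in all 16 alternatives. Gbp2 went from 9.23, 27.4 and 17.1 CPM to 49.7, 30.4 and 39.7 CPM (1.12 ± 0.08, adjusted p = 2.52e-35). Its groups did not overlap but lay close, and the call was lost in a robust quasi-likelihood fit (adjusted p = 0.149). The other members were not called: Gbp4 had a log2 fold change of 0.39 ± 0.18, Gbp6 0.53 ± 0.21, Gbp9 0.74 ± 0.33, Gbp5 -0.09 ± 0.43 and Gbp10 -0.52 ± 0.33. Without vehicle replicate 2, Gbp4 (0.71, adjusted p = 0.0336) and Gbp6 (1.14, adjusted p = 0.000865) were called and 5 members were higher. Gbp6 was also called without STING agonist replicate 2 (0.74, adjusted p = 0.0461) and Gbp9 without vehicle replicate 3 (1.49, adjusted p = 0.0154).

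In 6694c2 cells Gbp2 fell from 36.2, 34.2 and 23.8 CPM to 13.2, 9.01 and 13.3 CPM with STING agonist (log2 fold change -1.41 ± 0.11, adjusted p = 7.19e-12), the smallest p of all genes in that comparison. Gbp3 fell from 5.95, 5.97 and 4.27 CPM to 2.52, 1.95 and 2.99 CPM (-1.12 ± 0.14, adjusted p = 2.01e-06). Gbp4 fell from 3.56, 2.79 and 1.65 CPM to 1.30, 0.577 and 1.02 CPM (-1.48 ± 0.23, adjusted p = 0.000112). For each of these genes the STING agonist libraries all lay below the vehicle libraries. Gbp4 was no longer called in the robust fit (adjusted p = 0.0722).

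Gbp6 was called lower as well, from 0.992, 1.73 and 1.10 CPM to 0.748, 0.324 and 0.493 CPM (-1.30 ± 0.29, adjusted p = 0.0204). That call was lost in 6 of 16 alternatives, among them those that left out replicate 2 (-1.05, adjusted p = 0.174) or 3 (-1.27, adjusted p = 0.0728) of STING agonist or vehicle replicate 2 (-1.001, adjusted p = 0.278). The members not called all had a negative log2 fold change but Gbp2b: Gbp7 stood at -0.68 ± 0.19 (adjusted p = 0.146), Gbp10 at -1.33 ± 0.41 (adjusted p = 0.241), Gbp5 at -1.59 ± 0.70, Gbp8 at -1.42 ± 0.61 and Gbp9 at -0.24 ± 0.27. Gbp7 was called without vehicle replicate 3 (-0.89, adjusted p = 0.0148), with DESeq2 (adjusted p = 0.0461) and when genes of low count were kept (adjusted p = 0.0147).

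Transcripts typical of the other line were present in both lines and differed between treatments. In 6694c2 libraries the 11 melanocyte genes summed to between 87.6 and 89.1 CPM with vehicle and between 37.3 and 131 with IFNγ. The sums were between 26.04 and 40.2 CPM with IFNβ and between 19.5 and 23.6 with STING agonist. With IFNγ 0 of 11 were called, against 7.89% of all genes tested higher and 5.66% lower. With IFNβ 9 of 11 were called lower, against 7.86%, and with STING agonist 7 of 11, against 0.156%. The median log2 fold change of the 11 with STING agonist was -1.96. In B16F10 libraries the 12 ductal epithelial genes summed to between 17.9 and 25.6 CPM with vehicle and between 20.99 and 46.8 with IFNγ. Their sums were between 23.3 and 65.2 CPM with IFNβ and between 117 and 155 with STING agonist. With IFNγ, IFNβ and STING agonist 5, 8 and 6 of 12 were called higher, against 12%, 12.7% and 1.93% of all genes tested. No gene of either list was at 0 in a group of the other line. Relative to the IFNγ mean of the line, Gbp2, Gbp4, Gbp6 and Gbp10 in 6694c2 cells lay between 0.356% and 1.04% with vehicle and between 0.125% and 0.449% with STING agonist, while the median of 7 other genes chosen by the same rule as above lay between 0.403% and 0.870% with vehicle and between 0.308% and 0.475% with STING agonist. Whether RNA or reads of other libraries were mixed in at a low level was not tested. Such mixing would bear on the members' vehicle levels, on their folds over vehicle and on the lower values with STING agonist in 6694c2 cells. It would also bear on the STING agonist interactions between the lines given below.

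**Figure D5:**
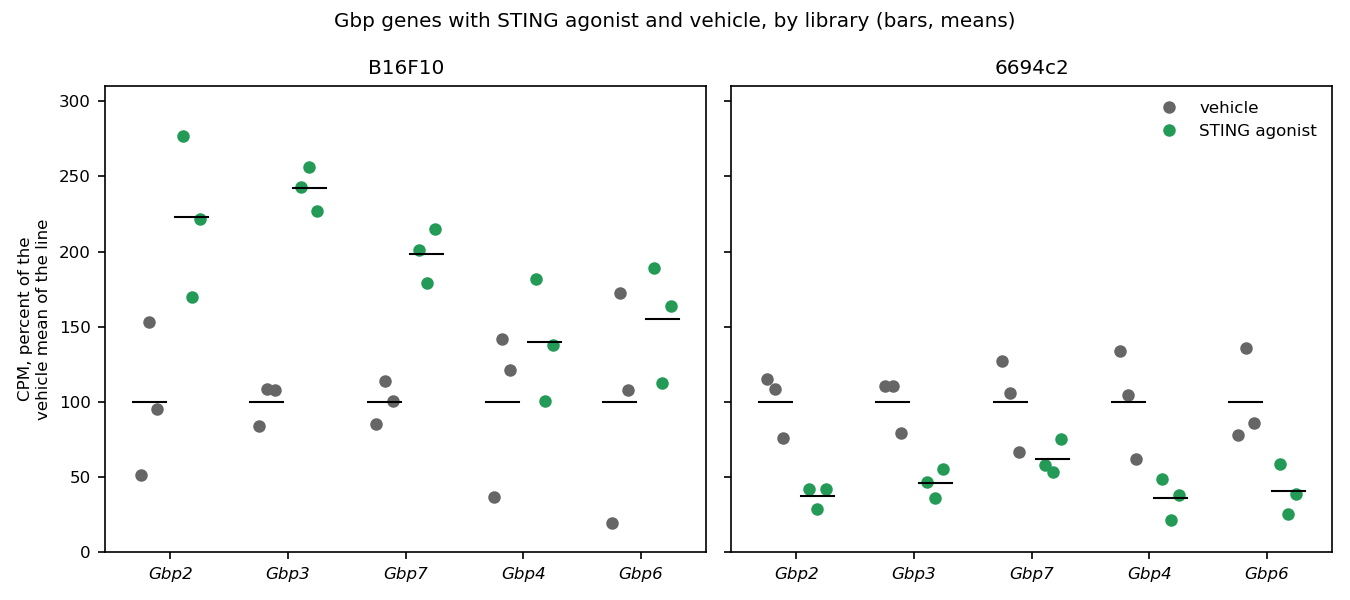
Level of Gbp2, Gbp3, Gbp7, Gbp4 and Gbp6 (CPM) with vehicle and with STING agonist as a percentage of the vehicle mean of its line, 1 point per library (3 per group) and bars at the means, in B16F10 (left) and 6694c2 cells (right). Gbp3 lies between 227% and 256% in B16F10 and between 36.1% and 55.4% in 6694c2 cells with STING agonist, and Gbp2 between 169.6% and 277% and between 28.7% and 42.3%.

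Before treatment, 2 of 10 members were higher in 6694c2 than in B16F10 cells, against 28.7% of all genes tested, and 3 of 10 were lower, against 29.3%, shares near or below the background. Gbp2 was higher (31.4 ± 6.62 against 17.9 ± 9.13 CPM, SD, n = 3 each, log2 difference 0.79 ± 0.18, adjusted p = 0.00022), although the ranges of the lines overlapped. Gbp8 was higher too, with 14 reads against 0. Lower were Gbp3 (5.40 ± 0.978 against 16.7 ± 2.36 CPM, -1.63 ± 0.11), Gbp7 (2.84 ± 0.877 against 5.92 ± 0.834 CPM, -1.06 ± 0.16) and Gbp2b (0 reads against 7), whose call was lost in 8 of 13 alternatives, among them DESeq2 (adjusted p = 0.0681) and leaving out any 1 of the 6694c2 vehicle libraries (adjusted p from 0.0798 to 0.0852) or B16F10 vehicle replicate 1 or 3 (adjusted p = 0.0723 and 0.0976). Without 6694c2 vehicle replicate 3, Gbp4 and Gbp9 were called higher as well, which made 4. Single libraries also decided other calls here: Gbp4 (0.79, adjusted p = 0.0252) without B16F10 vehicle replicate 2, Gbp9 without B16F10 vehicle replicate 3 (1.55, adjusted p = 0.00349) or 6694c2 vehicle replicate 2 (1.005, adjusted p = 0.0442), and Gbp10, lower without B16F10 vehicle replicate 1 (-0.94, adjusted p = 0.0352).

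An interaction term fitted to the 24 libraries asked whether a treatment acted differently in the lines, with positive values where the log2 change was more positive in 6694c2 cells. For IFNγ 2 of 10 members had a larger change in 6694c2 cells, against 4.52% of all genes tested, and 3 of 10 a smaller one, against 4.95%. The larger changes were those of Gbp7 (2.71 ± 0.18, adjusted p = 4.89e-15) and Gbp3 (1.64 ± 0.14, adjusted p = 4.11e-12), and both held in all 20 alternatives. For Gbp3 the IFNγ levels of the lines overlapped and the vehicle levels differed, whereas Gbp7 was lower with vehicle and higher with IFNγ in 6694c2 cells.

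The smaller IFNγ changes were those of Gbp4, Gbp6 and Gbp8, and they were less firm. Gbp4 (-0.90 ± 0.29, adjusted p = 0.0362) was called in 11 of 20 alternatives and was lost without B16F10 vehicle replicate 1 (-0.50, adjusted p = 0.264), 6694c2 vehicle replicates 1 or 2, B16F10 IFNγ replicates 1 or 2 and 6694c2 IFNγ replicates 1 or 3. Gbp6 (-1.09 ± 0.36, adjusted p = 0.0453) was called in 8 of 20. It was lost without B16F10 vehicle replicate 1 (-0.61, adjusted p = 0.209) or 3, 6694c2 vehicle replicates 2 (-0.79, adjusted p = 0.318) or 3, 6694c2 IFNγ replicate 3 and each B16F10 IFNγ replicate. Gbp8 (adjusted p = 0.0261) rests on a B16F10 vehicle group at 0 reads, so the size of its interaction depends on the prior count, and the call was lost without any 1 of the B16F10 vehicle libraries or without 6694c2 vehicle replicate 2. Gbp10 was called (-1.84, adjusted p = 0.0311) without B16F10 vehicle replicate 2. Gbp2 was not called, with an interaction of -0.20 ± 0.23.

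For IFNβ 3 of 10 members had a larger change in 6694c2 cells, against 6.16%, and 1 of 10 a smaller one, against 5.9%. Gbp7 (1.95 ± 0.18, adjusted p = 8.97e-11) and Gbp3 (1.86 ± 0.14, adjusted p = 7.75e-14) again had the larger change, and so did Gbp9 (1.62 ± 0.43, adjusted p = 0.00812). The IFNβ levels of Gbp9, 49.4, 49.8 and 47.4 CPM against 10.0, 8.13 and 8.49 CPM, lay far apart. Its call was lost without B16F10 vehicle replicate 3 (0.91, adjusted p = 0.337). Gbp2 had a smaller change in 6694c2 cells (-0.79 ± 0.24, adjusted p = 0.0198), from a higher vehicle level to the same IFNβ level. That call was lost without B16F10 vehicle replicates 1 (-0.44, adjusted p = 0.153) or 3, B16F10 IFNβ replicates 1 or 2 or 6694c2 vehicle replicates 1 or 2.

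For the STING agonist 0 of 10 members had a positive interaction, against 0.568% of all genes tested, and 5 of 10 a negative one, against 1.56%. The log2 fold changes of these 5 were above 0 in B16F10 and below 0 in 6694c2 cells. A negative interaction was also called for 8 of the 11 melanocyte and 6 of the 12 ductal epithelial genes. Low-level mixing of libraries would bear on these interactions and was not tested. Gbp3 had an interaction of -2.39 ± 0.17 (adjusted p = 3.68e-12), the smallest p of all genes in this test. Gbp2 had -2.54 ± 0.26 (adjusted p = 7.94e-09), Gbp7 -1.66 ± 0.24 (adjusted p = 7.66e-06) and Gbp4 -1.88 ± 0.40 (adjusted p = 0.00381). The calls of Gbp2, Gbp3 and Gbp7 held in all 20 alternatives and that of Gbp4 in 19. Gbp6 (-1.84 ± 0.49, adjusted p = 0.0342) was called in 11 of 20, and was lost without B16F10 STING agonist replicates 1 or 3, B16F10 vehicle replicate 3, 6694c2 STING agonist replicates 2 or 3 or 6694c2 vehicle replicate 2.

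Most of the factors that carry interferon signals to these genes rose with both interferons. Of 5 described here (Stat2, Irf1, Irf9, Irf2 and Irf8), 4 rose with IFNγ and 4 with IFNβ in B16F10 cells, and 5 and 4 in 6694c2 cells. Among all genes tested, 12% and 12.7% rose in B16F10 and 7.89% and 10.4% in 6694c2 cells. With STING agonist 3 rose in B16F10 cells (Stat2, Irf1 and Irf9), against 1.93% of all genes tested. In 6694c2 cells 0 moved in either direction, against 0.203% higher and 0.156% lower. Irf1, which binds ISRE-like sites, rose by a log2 fold change of 5.69 ± 0.07 with IFNγ and 1.68 ± 0.07 with IFNβ in B16F10 cells, and by 4.71 ± 0.08 and 2.28 ± 0.08 in 6694c2 cells. Its level with IFNβ was 39.3 ± 4.02 CPM against 637 ± 17.3 with IFNγ in B16F10 cells (SD, n = 3 each). Stat2 rose by 3.79 ± 0.08 with IFNγ and 4.16 ± 0.08 with IFNβ in B16F10 cells and by 3.56 ± 0.12 and 4.70 ± 0.12 in 6694c2 cells.

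The partner GTPases of the IRG family (Irgm1, Irgm2 and Igtp) control where GBPs are loaded. All 3 rose with IFNγ in B16F10 and 6694c2 cells, against 12% and 7.89% of all genes tested. All 3 rose with IFNβ too, against 12.7% and 10.4%, and with STING agonist in B16F10 cells, against 1.93%. In 6694c2 cells 0 rose with STING agonist, against 0.203%, and 1 fell, against 0.156%. Igtp changed there by a log2 value of -0.94 ± 0.15 (adjusted p = 0.000271). Igtp reached 2454 ± 56.3 CPM with IFNγ in B16F10 and 1253 ± 36 CPM in 6694c2 cells (SD, n = 3 each), from 17.3 ± 5.66 and 7.81 ± 2.36 CPM.

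The ATG8 conjugation genes that help load GBPs onto vacuoles moved little. Of 10, 3 rose with IFNγ in B16F10 cells, against 12% of all genes tested, and 0 fell, against 10.8%. Those were Gabarapl1 (0.35 ± 0.06 on the log2 scale), Atg12 (0.34 ± 0.08) and Gabarap (0.25 ± 0.06). With IFNβ there 1 rose, against 12.7%, and 3 fell, against 11.2%. In 6694c2 cells 1 rose and 0 fell with IFNγ, against 7.89% and 5.66%, and 1 rose and 2 fell with IFNβ, against 10.4% and 7.86%. Several of these counts lie near the shares of all genes. With STING agonist 0 moved in either line, against at most 1.93% of all genes tested higher and 1.53% lower. The enzymes that attach the prenyl anchor of Gbp2, Gbp2b and Gbp5 moved in a small range too. Fnta, the alpha subunit shared by the farnesyl and geranylgeranyl transferases, fell with IFNγ and IFNβ in both lines (log2 fold change -0.42 ± 0.06 and -0.44 ± 0.06 in B16F10, -0.31 ± 0.07 and -0.60 ± 0.07 in 6694c2 cells). Pggt1b, the geranylgeranyl beta subunit, rose in those 4 comparisons by 0.23 to 0.37, and Fntb was not called in any. With STING agonist 0 of these 3 moved in either line, against the same shares of all genes.

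Of 4 ubiquitin and adaptor genes that act at GBP-coated vacuoles (Traf6, Trim21, Sqstm1 and Rnf213), 2 rose and 1 fell with each interferon in B16F10 cells. Of all genes tested there, 12% rose and 10.8% fell with IFNγ, and 12.7% rose and 11.2% fell with IFNβ. In 6694c2 cells 2 rose with IFNγ, against 7.89%, and 4 with IFNβ, against 10.4%. Rnf213, a giant ubiquitin ligase, rose by 3.04 ± 0.07 with IFNγ and 3.26 ± 0.07 with IFNβ in B16F10 cells, and by 2.84 ± 0.15 and 4.37 ± 0.16 in 6694c2 cells. Sqstm1, the adaptor p62, had values of -0.25 ± 0.05 and -0.25 ± 0.05 in B16F10 cells, both called lower. With STING agonist 2 rose in B16F10 cells (Trim21 and Rnf213), against 1.93% of all genes tested, and 1 in 6694c2 cells (Sqstm1, 0.32 ± 0.06), against 0.203%.

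Downstream, 4 of 7 inflammasome and pyroptosis genes rose with IFNγ in each line, against 12% of all genes tested in B16F10 and 7.89% in 6694c2 cells. With IFNβ 3 rose in each line, against 12.7% and 10.4%. With either interferon 0 fell, against between 5.66% and 11.2%. Nlrp3, 1 of the 7, had 10 reads in all 24 libraries, too few to detect a change, and Pycard had 625. Gsdmd, the pore-forming gasdermin D, rose by 4.21 ± 0.16 with IFNγ and 2.69 ± 0.18 with IFNβ in B16F10 cells and by 1.497 ± 0.07 and 1.38 ± 0.07 in 6694c2 cells. Its vehicle levels were 1.20 ± 0.205 CPM in B16F10 and 58.2 ± 2.92 CPM in 6694c2 cells (SD, n = 3 each). Casp4, the mouse caspase-11 that senses lipopolysaccharide, rose by 3.77 ± 0.61 and 2.43 ± 0.67 in B16F10 and by 3.73 ± 0.23 and 2.703 ± 0.24 in 6694c2 cells. Casp1 rose in 6694c2 cells (4.20 ± 0.24 with IFNγ and 2.39 ± 0.27 with IFNβ) and was not called in B16F10 cells (0.11 ± 0.54 and -0.64 ± 0.58). With STING agonist 0 of the 7 moved in either line, against at most 1.93% of all genes tested higher and 1.53% lower. For Nlrp3 that is no evidence of a missing response, and the change of Casp4 in B16F10 cells had a standard error of 0.98.

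Most genes around the clusters moved by small amounts. Of 13 tested genes within 300 kb of a member, 6 rose with IFNγ in B16F10 and 3 in 6694c2 cells with 0 lower, and with IFNβ 5 rose and 1 fell in B16F10 and 2 rose and 1 fell in 6694c2 cells, shares to be read against the percentages of all genes given above. With IFNγ in B16F10 cells, Pdlim5, Gtf2b and Pkn2 rose by 0.16, 0.19 and 0.23 on the log2 scale, Gm32051 by 0.98 and Gm26519 by 1.69. The remaining gene, Gm43302, rose in both lines and shares exons with Gbp6 and Gbp10. With STING agonist 0 of 13 moved in either line. Of the further Gbp loci, the polymorphic pseudogene Gbp11 next to Gbp6 rose with IFNγ (9.15 ± 0.25 in B16F10 and 5.45 ± 0.54 in 6694c2 cells) and with IFNβ in B16F10 cells (2.94 ± 0.59), and Gbp2-ps had 0 reads.

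Over the 8 group means, genes whose log2 profile was among the 5 most like the mean profile of the members were Casp12 (Pearson's r 0.986), Gm12216 (0.985), Tapbpl (0.984) and Gm5970 (0.983), out of 12377 genes with a mean of at least 1 CPM. These 4 rose with IFNγ and with IFNβ in both lines, which largely follows from choosing them by the members' profile. Only Tapbpl among them was called with STING agonist, higher in B16F10 cells (0.55 ± 0.09), against 1.93% of all genes tested. Tapbpl, an editor of peptides for MHC class I, had log2 fold changes of 4.53 ± 0.08 with IFNγ and 1.77 ± 0.08 with IFNβ in B16F10 cells and 4.07 ± 0.09 and 2.42 ± 0.09 in 6694c2 cells.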

How the data were processed

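Bulk RNA-seq libraries of 6694c2 PDAC and B16F10 melanoma cells were analysed (24 libraries, 8 groups of 3). The authors trimmed adaptors with cutadapt, aligned the read pairs with STAR and, with Rsubread, made the raw counts of 49315 genes that they deposited without normalization. Strandedness and the treatment of reads that fit several genes are not given in the sources used here. This matters most for Gbp6, Gbp10 and Gm43302, and also for Gbp8. Symbols were found for 48970 genes, and 91.4% of the 49056 genes in GENCODE M21 have the same position there, so coordinates are on GRCm38. The study's 6 single-cell samples were left out, since their groups could not be taken from the labels.

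Genes with at least 10 reads combined were tested with edgeR 4.0.16 (quasi-likelihood, TMM, limma 3.58.1, R 4.3.3) and Benjamini-Hochberg adjustment over all of them. Each line was fitted on its 12 libraries, and line differences and interactions on all 24. A standard error is the fold change divided by the square root of F. CPM used TMM sizes, and RPKM divided CPM by exon length. Bounds divided the treated level by a floor of 3 counts over the vehicle group. They leave out counting error in the treated group and spread between libraries. Genes named are all members, the pathway and marker lists, genes within 300 kb of a member, and the 5 genes whose log2(CPM + 0.5) profile over group means (at least 1 CPM on average) correlated best with the mean of the members' z-scored profiles. GAS and ISRE letters were sought in RefSeq promoters of GRCm38.p6. Of these, 2 genes that are no members are not reported here. The members and lists were chosen with earlier results of these data known. Alternatives were DESeq2 1.42.0, a robust fit, RLE size factors, no filter or the filterByExpr minimum on low counts, a replicate block, each library left out, other libraries in the fit, CPM without TMM, and Gbp6 summed with Gbp10. Summing Gm43302 as well was added after seeing the data.

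In simulated counts for the 6694c2 STING agonist comparison (21138 genes, 50 lowered by 1 on the log2 scale among those changed), 46 of these 50 were recovered, and over all changed genes there were 191 true and 33 false calls. In the B16F10 one, 46 of 50 genes raised by 1 were recovered, with 189 true and 13 false calls. Replicate libraries correlated with r between 0.996 and 0.998 over genes, and every pair differed by more than sampling noise (chi-square per gene at least 2.99). An exact test of 3 against 3 libraries cannot go below p = 0.1.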

Additional observations from a re-analysis of the deposited data

Results flagged for a closer look

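For 14 effects the change against vehicle differed between the lines by edgeR's interaction test over all 24 libraries (6694c2 minus B16F10, log2, adjusted p under 0.05). With IFNγ these were Gbp3 (1.64) and Gbp7 (2.71), more positive in 6694c2 cells, and Gbp4 (-0.90), Gbp6 (-1.09) and Gbp8 (-4.36), more positive in B16F10 cells, the last resting on a B16F10 vehicle group at 0 reads. With IFNβ they were Gbp3 (1.86), Gbp7 (1.95) and Gbp9 (1.62), more positive in 6694c2 cells, and Gbp2 (-0.79), more positive in B16F10 cells. With STING agonist they were Gbp2 (-2.54), Gbp3 (-2.39), Gbp4 (-1.88), Gbp6 (-1.84) and Gbp7 (-1.66), each more positive in B16F10 cells. Low-level mixing of libraries would bear on the STING agonist effects and was not tested.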

How the results depend on the processing

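Of 2076 values for single members under an alternative, 1918 kept their direction and side of the threshold (for levels, stayed within the spread of replicates), 66 lost a call, 30 gained one, 41 turned in sign and 21 levels moved, the last on total reads without TMM. The calls with IFNγ and IFNβ against vehicle and between the interferons held in every alternative that gave a value, except that of Gbp2b with IFNγ in 6694c2 cells. Counts of members moved by over 1.5 times in these cases. Members higher in 6694c2 than in B16F10 vehicle went from 2 to 4 with no filter on low counts. Members with a smaller IFNγ change in 6694c2 cells went from 3 to 1 and those with a smaller IFNβ change from 1 to 0, each with DESeq2 and with the robust fit, and those with a negative STING agonist interaction from 5 to 3 with the robust fit. With 1 library left out, these counts ranged from 2 to 4 for vehicle, from 0 to 3 for IFNγ and from 0 to 1 for IFNβ, and members higher with STING agonist in B16F10 cells from 3 to 5. The causes were not tested. Gbp2b gave no value with the filterByExpr minimum and, except between vehicle groups, no adjusted p with DESeq2.

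Signs turned only for values not called. Gbp6 between vehicle groups (-0.00) became 0.0227 with DESeq2, 0.00603 with filterByExpr and 0.10 with the replicate block, and the IFNγ interaction of Gbp9 (-0.00) became 0.0154 with DESeq2, 0.0236 with RLE size factors and 0.00886 with the replicate block. In B16F10 cells Gbp2b became 0.00469 for IFNβ and 0.0754 for IFNγ with the replicate block. Summed with Gbp6, Gbp10 became 0.22 for STING agonist in B16F10 cells and -0.16 for the IFNβ interaction, with or without Gm43302 in the sum. With 1 library left out, Gbp8 ranged from -0.26 to 0.65 for IFNβ and Gbp9 from -0.45 to 0.11 for STING agonist in 6694c2 cells. In B16F10 cells Gbp10 ranged from -0.20 to 1.02 for IFNβ and from -0.996 to 0.22 for STING agonist, and Gbp5 from -0.33 to 0.14 for STING agonist. There Gbp2b ranged from -0.60 to 0.49 for IFNγ, from -0.87 to 0.22 for IFNβ, from -0.0110 to 0.64 between the interferons and from -1.74 to 0.15 for STING agonist. Between vehicle groups Gbp10 ranged from -0.94 to 0.28 and Gbp6 from -0.48 to 0.57. For the interactions, Gbp10 ranged from -0.24 to 0.98 and Gbp6 from -0.88 to 0.17 with IFNβ, and Gbp2 from -0.59 to 0.15 and Gbp9 from -0.71 to 0.43 with IFNγ.

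Replicate numbers did not pair the libraries: same-numbered libraries had deviations that correlated between -0.221 and 0.269, and in no comparison were all pairs over 0.1. With the replicate block no count of called members moved by over 1.5 times. Gbp7 was then called lower with STING agonist in 6694c2 cells (-0.67, adjusted p = 0.0314), and Gbp2b was no longer called with IFNγ in 6694c2 cells (adjusted p = 0.0517) or between vehicle groups (adjusted p = 0.121). Depth limits Gbp2b, Gbp8 and the vehicle levels of Gbp5, Gbp9 and Gbp10, which rest on at most 54 reads a vehicle group.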
